A study of Mus musculus with 2 samples.

Results

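The genes described here encode oxidative phosphorylation, the respiratory chain and ATP synthase of the mitochondrial inner membrane. They were taken by name from the 30223 rows of the deposited table: the mitochondrially encoded mt-Nd, mt-Co, mt-Cytb and mt-Atp rows, and the nuclear rows of the Ndufa, Ndufb, Ndufc, Ndufs and Ndufv, Sdha to Sdhd, Uqcr, Cox4 to Cox8 and Atp5 families, leaving out pseudogene names in -ps. The rule found 104 genes, of which 11 are mitochondrially encoded subunits, 85 are nuclear encoded subunits and 8 are Ndufaf assembly factors of complex I, which the name rule also takes. The study measured single-cell transcripts in the hippocampus of C57Bl.6/J mice that were wild-type or homozygous for the knock-in allele Pigv341E, an edited form of a gene of the GPI anchor pathway. For each genotype, tissue of 4 mice (8 hippocampi) was taken apart by mechanical means at low temperature and combined into 1 library, so single mice cannot be told apart. The libraries were made with Chromium v3 chemistry and shared a sequencing lane. Age and sex are not given in the sources used here. With 1 library per genotype there was no replicate and no test, so an effect of genotype and one of library cannot be told apart.

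Oxidative phosphorylation passes electrons from NADH through complex I (NADH dehydrogenase) or from succinate through complex II (succinate dehydrogenase) to complex III (cytochrome bc1) and complex IV (cytochrome c oxidase), which reduces oxygen. The proton gradient built on the way drives complex V, ATP synthase. Complexes I, III, IV and V combine subunits encoded in the mitochondrial genome, which form their catalytic core or proton channel, with subunits encoded in the nucleus, while complex II is wholly nuclear encoded. Mitochondrial genes are transcribed inside the organelle as long polycistronic RNAs, and nuclear genes are transcribed one by one in the nucleus. Neurons depend on this pathway for most of the ATP that ion pumping and transmission require.

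The table held 7094 wild-type and 8836 knock-in cells, with 28 cell barcodes shared by both libraries. Its values were whole numbers already corrected for depth, with totals per cell between 4846 and 14501. The median wild-type cell had 3122 detected genes and the median knock-in cell 3736, with a median total of 8631 against 9608. A level below is the summed value of a gene per 10000 of all values in the same cells, and a log2 ratio compares knock-in with wild-type levels after adding 0.1 to both. Ratios were read for genes whose level averaged 0.2 or more (the minimum level), and a gene was counted as higher or lower at a log2 ratio of 0.25 or more in size. Cells fell into 38 clusters made without the member genes, of which 26 could be named from marker genes and carry names in -like. The 12 unnamed clusters held 958 wild-type and 1581 knock-in cells. The largest classes were mature oligodendrocyte-like (1510 wild-type and 1509 knock-in cells), dentate granule neuron-like (1403 and 1388) and pyramidal neuron-like cells (1134 and 1319), so the defining neurons of the labelled hippocampus were present. Pigv itself stood at 0.0886 and 0.1004 per 10000, which checks nothing, because 3′ tags of a knock-in allele do not show the edit.

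The mitochondrially encoded rows come first, because 4 of them have near-identical copies in the nuclear genome that stand as separate rows of the table. A stretch near the 3′ end of mt-Co2 (bases 562 to 681 of the gene, chrM:7013-7696, plus strand, GRCm38) is identical in Gm28661, an unprocessed pseudogene at chr1:24614885-24615565 on the minus strand. The 2 genes match at all of the 681 aligned bases, so a read from inside them fits both. The start of mt-Nd3 (chrM:9459-9806, plus strand) and of Gm28438 (chr1:24612775-24613119, minus strand) differ at 1 of 345 aligned bases. That base is T3C, counted from 1 at the gene's 5′ end, and is in capitals here.
mt-Co2 and Gm28661: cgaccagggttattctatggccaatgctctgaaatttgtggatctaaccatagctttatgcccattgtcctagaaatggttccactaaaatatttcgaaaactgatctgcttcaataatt
mt-Nd3: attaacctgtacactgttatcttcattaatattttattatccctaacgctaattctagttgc
Gm28438: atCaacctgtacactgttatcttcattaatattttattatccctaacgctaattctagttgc

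Promoters of nuclear encoded subunits are shown for 3 genes with different motif content. RefSeq promoters (GRCm38.p6, 250 bases before to 50 after the start) were found for 66 of the 85. The letters of the NRF1 site, GCGCANGCG, were searched, like those below, on both strands and stood in 19 of the 66 (28.8%), against 9.30% of 17048 promoters of the same length and 14.7% of the 5973 of genes at the minimum level. NRF1 and GABPA are transcription factors known for controlling nuclear genes of the respiratory chain. The GABPA letters CCGGAAG stood in 15 of 66 (22.7%), against 12.6% and 17.1%. The letters of the YY1 site, AAGATGGCG, stood in 6 of 66 (9.09%), against 2.09% and 3.55%, and those of SP1, GGGCGG, in 26 (39.4%), against 48.8% and 66.5%. The GABPA letters end in AAG, with which the YY1 letters begin, so matches of these motifs can overlap. Of the promoters below, Sdha (chr13:74350191-74350490, minus strand) held 3 NRF1 matches, Cox8a (chr19:7217567-7217866, minus strand) 2 GABPA matches, and Cox7c (chr13:86046746-86047045, minus strand) none of NRF1, GABPA and YY1, whose matches are in capitals. These 3 genes had log2 ratios of 0.10, 0.38 and 0.46 over all cells.
Sdha: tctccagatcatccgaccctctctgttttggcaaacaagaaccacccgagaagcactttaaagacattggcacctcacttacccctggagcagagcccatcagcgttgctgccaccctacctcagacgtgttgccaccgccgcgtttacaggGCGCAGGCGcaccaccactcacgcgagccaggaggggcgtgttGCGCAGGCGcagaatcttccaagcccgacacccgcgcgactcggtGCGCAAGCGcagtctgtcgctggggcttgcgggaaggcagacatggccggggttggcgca
Cox8a: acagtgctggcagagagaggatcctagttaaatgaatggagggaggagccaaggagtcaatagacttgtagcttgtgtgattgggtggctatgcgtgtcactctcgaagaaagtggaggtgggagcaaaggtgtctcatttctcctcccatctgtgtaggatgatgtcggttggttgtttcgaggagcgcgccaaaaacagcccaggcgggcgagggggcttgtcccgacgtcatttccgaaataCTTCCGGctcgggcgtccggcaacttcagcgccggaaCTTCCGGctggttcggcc
Cox7c: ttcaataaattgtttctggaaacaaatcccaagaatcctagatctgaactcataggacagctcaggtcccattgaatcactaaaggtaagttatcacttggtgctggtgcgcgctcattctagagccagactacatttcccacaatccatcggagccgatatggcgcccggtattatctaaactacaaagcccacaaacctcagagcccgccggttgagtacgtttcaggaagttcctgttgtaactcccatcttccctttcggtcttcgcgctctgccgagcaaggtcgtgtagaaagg
A match describes letters only. Among nuclear subunits at the minimum level, the 20 whose promoter held NRF1, GABPA or YY1 letters had a median log2 ratio of 0.22 and the 24 without had 0.25, with ranges of 0.04 to 0.38 and 0.01 to 0.46 that overlapped.

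Over all cells the mitochondrially encoded subunits were higher in the knock-in library. Their summed level was 29.7 per 10000 in wild-type cells and 43.7 in knock-in cells, 1.47-fold higher. Of the 11, 10 had the minimum level, and all 10 were higher by at least 0.25, against 8.68% of the 7842 genes at that level. Their median log2 ratio was 0.62 (range 0.45 to 2.47), against 0.05 over all genes. At a log2 ratio of 0.5, 8 of the 10 were counted, against 0.969% of all genes. The mitochondrial ribosomal RNAs mt-Rnr1 and mt-Rnr2, which are no subunits, had log2 ratios of 0.80 and 0.65.

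The complex I genes of the mitochondrial genome encode membrane subunits of its proton pump. mt-Nd4l stood at 7.88 in wild-type and 10.99 in knock-in cells, a log2 ratio of 0.47. mt-Nd2 went from 5.93 to 9.16 (0.62), mt-Nd1 from 4.49 to 6.49 (0.52) and mt-Nd5 from 0.363 to 0.609 (0.61). mt-Nd6, the only member encoded on the other strand, stood at 0.588 and 0.921 (0.57), so its ratio lay among those of the plus-strand genes. mt-Nd3 had the widest difference of the complex I genes, from 0.195 to 0.544 (1.13). mt-Nd5 and mt-Nd6 share 14 bases on opposite strands, and whether counting used strand is not given in the sources used here. mt-Nd4 and mt-Co3 were not analysed here.

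mt-Cytb, the cytochrome b of complex III and its sole mitochondrially encoded subunit, went from 9.38 to 12.83 (0.45). It was found above 0 in 73.9% of wild-type cells (95% Clopper-Pearson interval 72.8 to 74.9%) and in 85.1% of knock-in cells (84.3 to 85.8%). These intervals, like all given here, cover counting error only. For complex IV, mt-Co1, which holds the oxygen-reducing centre, went from 0.714 to 1.27 (0.75). mt-Co2, which takes electrons from cytochrome c, stood at 0.00617 in wild-type and 0.490 in knock-in cells, and was above 0 in 0.451% (0.309 to 0.636%) and 24.6% (23.7 to 25.5%) of cells. Its log2 ratio of 2.47 was the widest among the members. For complex V, mt-Atp8 went from 0.122 to 0.359 (1.05). mt-Atp6 stood at 0.00743 and 0.00483, under the minimum level, and shares 43 bases with mt-Atp8.

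The rows of the nuclear copies carried most of the values for 4 of these genes. Gm10925, identical to mt-Atp6 over 678 bases, stood at 13.4 in wild-type and 17.7 in knock-in cells. Gm28661, the copy of mt-Co2, stood at 10.5 and 14.4. Gm29216, 99.8% identical to mt-Co1 over 483 bases, stood at 8.85 and 12.1, and Gm28438, the copy of mt-Nd3, at 1.15 and 1.94. The share of the pair on the mitochondrial row itself was 0.0587% in wild-type and 3.29% in knock-in cells for mt-Co2, 7.46% and 9.54% for mt-Co1, and 14.5% and 21.9% for mt-Nd3. For mt-Atp6 it was 0.0557% and 0.0273%. Reads that fit both rows cannot be told apart from these files. When each member was summed with its copy row (at least 99% identical), mt-Co2 went from 10.5 to 14.9, a log2 ratio of 0.50 in place of 2.47. mt-Atp6 went from 13.4 to 17.7 (0.40), mt-Co1 from 9.57 to 13.3 (0.47) and mt-Nd3 from 1.34 to 2.49 (0.84). In this form all 11 had the minimum level and all 11 were higher by at least 0.25, with a median of 0.52 (range 0.40 to 1.05), and the sum went from 63.5 to 89.8.

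**Figure D1:**
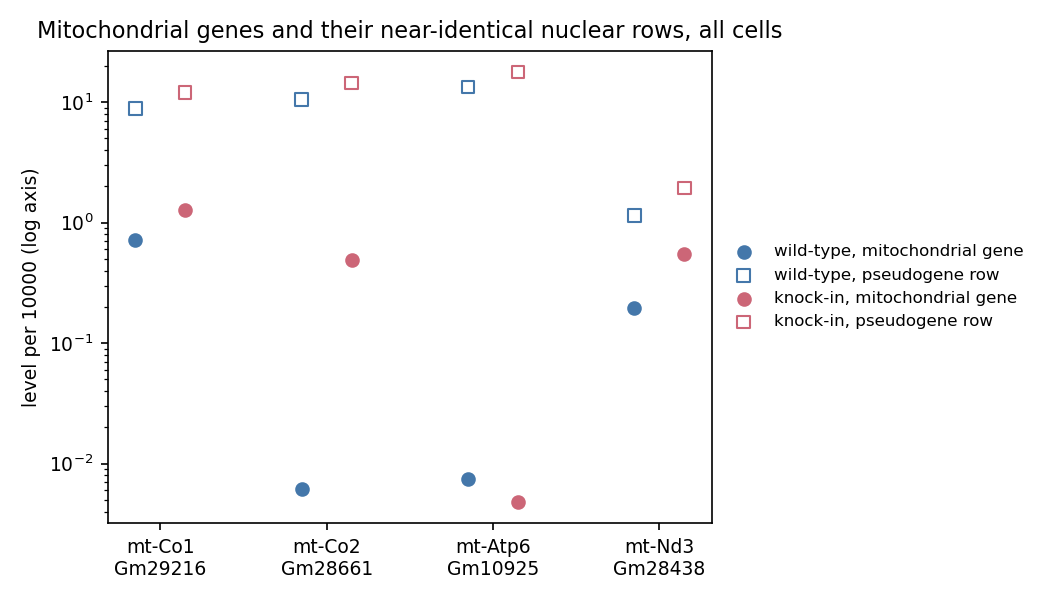
Levels per 10000 over all cells (vertical log axis) of 4 mitochondrially encoded members (filled circles) and of the nuclear pseudogene row at least 99% identical to each (open squares), in the wild-type (blue) and knock-in (red) library, 1 library each. The pseudogene rows lie above the mitochondrial rows in all 4 pairs, and mt-Co2 is the member that differs most between libraries (0.00617 and 0.490).

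The nuclear encoded subunits were also higher in the knock-in library, by less. Their summed level went from 21.7 to 26.5 per 10000, 1.22-fold higher. Of the 85, 54 had the minimum level, and all 54 had a log2 ratio above 0, with a median of 0.23 (range 0.0096 to 0.46). The median of all genes, 0.0456, was above 0 too, and Ndufv2, Ndufs1 and Ndufs4 lay under it. The share of all genes above 0 is not given here. At 0.25, 22 of the 54 were higher and none was lower, against 8.68% and 2.45% of all genes. None reached 0.5. The count moved with the pseudocount, from 36 with 0.01 to 2 with 0.5, since a larger pseudocount weighs more on low levels. The difference between the medians of the mitochondrially and nuclear encoded groups was 0.38, or 0.29 with the copy rows summed.

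**Figure D2:**
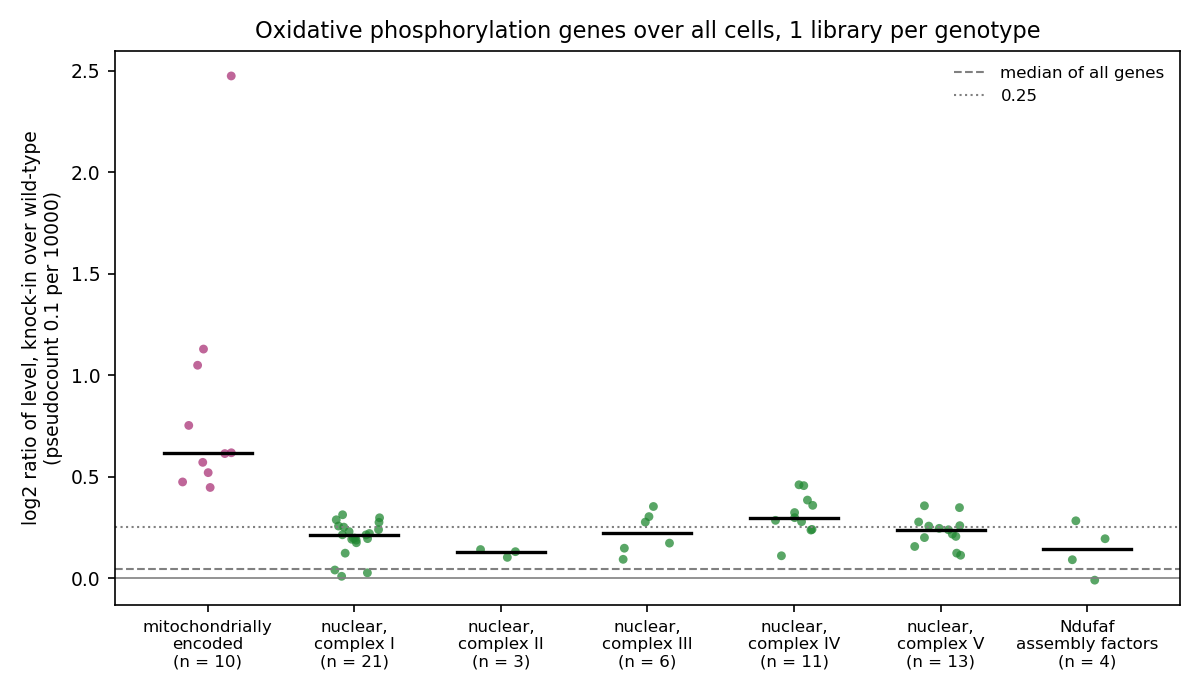
Log2 ratio of the level over all cells, knock-in over wild-type (vertical axis), for each member at the minimum level, grouped by genome and complex, with black lines at the group medians. The 10 mitochondrially encoded points (0.45 to 2.47) lie above nearly all of the 54 nuclear encoded points (0.01 to 0.46), and complex IV has the highest nuclear median (0.30).

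Complex IV held the nuclear subunits with the largest ratios. Cox7c, a small structural subunit, went from 0.403 to 0.592 (log2 ratio 0.46) and from 23.3% (22.3 to 24.3%) to 34.6% (33.6 to 35.6%) of cells above 0. Cox5b went from 0.194 to 0.303 (0.46), Cox8a from 0.712 to 0.961 (0.38) and Cox6c from 0.580 to 0.772 (0.36). Ndufa4, a complex IV subunit despite its name, went from 0.459 to 0.560 (0.24). The smallest ratio was that of Cox7a2l, a factor that helps complexes join into supercomplexes, at 0.360 and 0.396 (0.11). In all, 8 of 11 were higher by 0.25, with a median of 0.30.

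In complex I, 6 of 21 nuclear subunits were higher by 0.25 and the median was 0.21. Ndufb3, an accessory subunit of the membrane arm, had the largest ratio, from 0.267 to 0.356 (0.31). The smallest was that of Ndufv2, an iron-sulfur subunit of the NADH-binding module, which stood at 0.517 and 0.521 (0.01). Ndufs1, another iron-sulfur subunit of that module, stood at 0.969 and 0.989 (0.03). Ndufs4, an accessory subunit whose loss causes a mouse model of Leigh syndrome, stood at 1.12 and 1.15 (0.04). Of the 8 Ndufaf assembly factors, 4 had the minimum level, with log2 ratios between -0.01 (Ndufaf2) and 0.28 (Ndufaf4).

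Complex II, the succinate dehydrogenase that also serves the tricarboxylic acid cycle, had none of 3 genes past 0.25. Sdha, its flavoprotein, stood at 0.629 and 0.683 (0.10), Sdhc, a membrane anchor, at 0.317 and 0.357 (0.13), and Sdhb, its iron-sulfur subunit, at 0.543 and 0.609 (0.14). In complex III, 3 of 6 were higher by 0.25, with a median of 0.22. Uqcr11 had the largest ratio, from 0.218 to 0.306 (0.35), followed by Uqcrq, from 0.279 to 0.368 (0.30). Uqcrc2, a core subunit, had the smallest, from 0.280 to 0.305 (0.09), and Uqcrh, the hinge protein, stood at 0.434 and 0.492 (0.15). In complex V, 5 of 13 were higher by 0.25, with a median of 0.24. Atp5e, the epsilon subunit of the catalytic head, went from 0.222 to 0.312 (0.36). Atp5j, coupling factor 6, went from 0.238 to 0.330 (0.35). Atp5l, a subunit of the membrane part, stood at 0.480 and 0.546 (0.16), and Atp5c1, the gamma subunit of the central stalk, had the smallest ratio, from 0.446 to 0.491 (0.11).

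Gene length moved with the ratio among the nuclear subunits. Across the 54 genes, Pearson's r between the log10 of the gene's span and its log2 ratio was -0.68 and Spearman's rho was -0.63. Across 7698 other genes the same values were -0.34 and -0.43. Genes are not independent replicates, and these are descriptions of 1 pair of libraries. Cox7c spans 2.09 kb and Cox5b 2.23 kb, while Ndufs1 spans 33.2 kb and Ndufs4 100.5 kb. Among genes of up to 10 kb, 32 nuclear subunits had a median log2 ratio of 0.26 and 17 of them were higher by 0.25. The 653 other genes of that span had a median of 0.20, with 30.3% higher, and 68 cytosolic ribosomal protein genes had a median of 0.24. Between 10 and 50 kb the medians were 0.17 for 21 nuclear subunits (5 higher) and 0.08 for 3292 other genes (5.92% higher). The part of gene length in the nuclear result was not tested.

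Other gene lists give the setting of these values over all cells. Cytosolic ribosomal proteins, with no known part in respiration, had a median of 0.23 and 31 of 72 higher, so the nuclear subunits at 22 of 54 were not set apart from them. Mitochondrial ribosomal proteins, which make the mitochondrially encoded subunits, had a median of 0.17 with 5 of 24 higher, led by Mrpl41 (0.37). Carriers and creatine kinases had 0.22 with 4 of 9 higher. Their leading genes were Usmg5 (0.40), a part of ATP synthase outside the name rule, and Atpif1 (0.32), the inhibitor of that enzyme. Tricarboxylic acid cycle genes had 0.12 with 1 of 16 higher (Idh3b, 0.28), and glycolysis and lactate genes 0.12 with 3 of 16 (Hk2, 0.31, the largest). Assembly factors outside the rule had 0.05 with 2 of 15 higher, Pet100 (0.43) and Cox17 (0.31), which both serve complex IV. Genes of mitochondrial DNA maintenance, transcription and RNA stability had 0.06 with 1 of 11 higher, Ssbp1 (0.25), the single-stranded DNA binding protein. Malat1, a nuclear retained RNA, stood at 206 and 259 per 10000 (0.33), so this nuclear RNA was higher in the knock-in library too. Among the nuclear retained RNAs listed it alone passed 0.25, with Snhg11 (0.24) and Mirg (0.22) next in size. The part of Malat1 in the results was not tested.

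Summed levels differed between cell classes in both libraries, over a wider range for the mitochondrially encoded subunits than for the nuclear encoded ones outside the choroid plexus. The summed mitochondrially encoded level was lowest in pyramidal neuron-like cells, at 3.51 per 10000 (wild-type) and 8.04 (knock-in). Interneuron-like cells followed at 8.88 and 14.1, and dentate granule neuron-like cells at 13.1 and 22.1. The dentate sums joined a cluster led by Trpc6 (1375 and 1295 cells), at 11.4 and 16.2, with one led by C1ql2, at 92.7 and 102.9, which held 28 wild-type and 93 knock-in cells. Oligodendrocyte precursor-like, astrocyte-like, Cajal-Retzius-like, fibroblast-like, mature oligodendrocyte-like and immature neuron-like cells lay between 28.8 and 46.7 among wild-type and between 43.9 and 64.2 among knock-in cells. Microglia-like cells stood at 86.9 and 98.2 and choroid plexus-like cells, the secretory epithelium of the ventricles, at 176 and 339. The pyramidal neuron-like, interneuron-like and dentate granule neuron-like classes were thus the lowest in both libraries. These sums leave out the copy rows. With them, pyramidal neuron-like cells stood at 7.08 and 15.5, interneuron-like at 18.2 and 27.7 and dentate granule neuron-like at 26.3 and 42.8. The same classes were then lowest, and choroid plexus-like cells stood at 357 and 654.

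**Figure D3:**
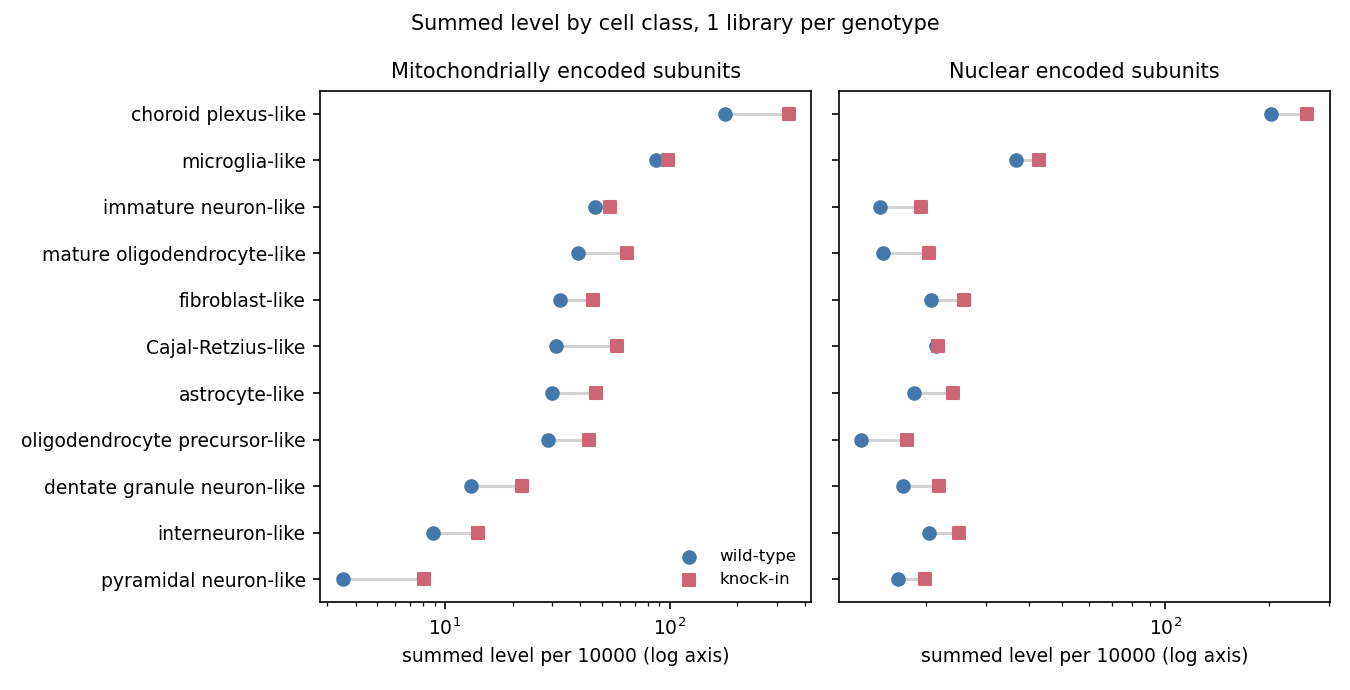
Summed level per 10000 (horizontal log axes, with a different range in each panel) of the mitochondrially encoded subunits (left) and nuclear encoded subunits (right) in 11 cell classes, for the wild-type (circles) and knock-in (squares) library. The sums at left leave out the near-identical copy rows. Pyramidal neuron-like cells are lowest at left (3.51 and 8.04), choroid plexus-like cells are highest in both panels, and the other nuclear sums lie between 12.9 and 42.8.

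The nuclear encoded sum spread less. It lay between 12.9 (oligodendrocyte precursor-like) and 21.4 (Cajal-Retzius-like) in 9 wild-type classes and between 17.6 and 25.9 in the same 9 knock-in classes. Microglia-like cells stood at 36.7 and 42.8 and choroid plexus-like cells at 204 and 260. The ratios below take the mitochondrially encoded rows without their copy rows. With those rows every ratio would be higher, and the order of classes was not computed. The ratio of the mitochondrially to the nuclear encoded sum was therefore lowest, in this form, in pyramidal neuron-like cells, 0.212 and 0.404. It was 0.437 and 0.563 in interneuron-like and 0.760 and 1.01 in dentate granule neuron-like cells. The highest ratios were those of immature neuron-like (3.19 and 2.80) and mature oligodendrocyte-like (2.60 and 3.15) cells. In choroid plexus-like cells, where both sums were highest, it was 0.864 and 1.31. Across clusters of at least 20 cells, the nuclear and mitochondrially encoded sums had a Pearson's r of 0.56 over 35 wild-type clusters and 0.69 over 36 knock-in clusters. The nuclear sum and the cytosolic ribosomal protein sum had 0.78 and 0.83, and the mitochondrially encoded and ribosomal protein sums also had 0.78 and 0.83. Spearman's rho was 0.41 and 0.66 for nuclear with mitochondrially encoded sums. It was 0.64 and 0.77 for nuclear with ribosomal sums and 0.88 and 0.92 for mitochondrially encoded with ribosomal sums. These points share a library and a denominator.

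Of the 58 nuclear members at the minimum level over all cells, assembly factors included, 48 had their highest level in choroid plexus-like cells in both libraries. The same count was not made over all genes, so whether these members differ from other genes in this is not known. Cox8a stood at 12.8 and 16.3 there, against 1.39 and 1.78 in microglia-like cells and 0.311 and 0.402 in pyramidal neuron-like cells, the lowest of the 12 classes with at least 20 cells. Atp5g1, a gene for the c subunit of the ATP synthase ring, stood at 8.56 and 10.2 in choroid plexus-like cells and between 0.0385 and 0.503 in the other classes. Atp5g1 had the widest range of the nuclear subunits in both libraries. By the smaller of a gene's 2 ranges, Uqcr11, Atp5e, Ndufa11 and Cox8a came next. Uqcr11 stood at 6.18 and 8.17 in choroid plexus-like cells, Atp5e at 5.24 and 7.59, and Ndufa11, an accessory subunit of complex I, at 4.86 and 5.68. Ndufs4 was flat in comparison, with 1.79 and 1.74 in choroid plexus-like cells against 0.791 and 0.828 in mature oligodendrocyte-like cells. The 10 exceptions included Cox5a, highest in interneuron-like cells at 0.309 and 0.349, and Ndufaf7, highest there too at 0.592 and 0.638.

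Several classes joined clusters whose cell numbers differed between libraries, so each such class value mixes levels with cluster shares. These were the choroid plexus-like, microglia-like, dentate granule neuron-like, interneuron-like, astrocyte-like, pyramidal neuron-like and mature oligodendrocyte-like classes. A choroid plexus-like cluster led by Ttr, the thyroid hormone carrier of that epithelium (62 and 67 cells), had nuclear sums of 329.8 and 333 and mitochondrially encoded sums of 296 and 423. The other, led by Htr2c (40 and 21 cells), had 30.1 and 32.1, and 11.1 and 79.9. Among microglia-like clusters, the one led by Cst3 (161 of 658 and 114 of 858 cells) had nuclear sums of 55.5 and 74.1 and mitochondrially encoded sums of 168 and 198. The cluster led by Arhgap45 (243 and 347 cells) had nuclear sums of 15.6 and 22.7 and mitochondrially encoded sums of 78.9 and 119.9. The cluster led by P2ry12 (254 and 397 cells) had 44.6 and 50.7, and 52.9 and 60.2. The interneuron-like class joined a cluster led by Kcnmb2 (153 and 252 cells) with one led by 6330411D24Rik and Lef1 (83 and 223 cells), in which Gad1, Gad2 and Slc32a1 passed as markers and Lhx6 and Sst did not. An unnamed cluster led by mt-Rnr2 and mt-Rnr1 (193 and 148 cells) had mitochondrially encoded sums of 124 and 316. Without it the medians over all cells were 0.58 for the mitochondrially encoded and 0.21 for the nuclear encoded subunits.

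Within classes, the direction seen over all cells was the same for the mitochondrially encoded subunits. Ratios were read in the 11 classes that had 50 or more cells per library, and the median was above 0 in all 11, from 0.35 in microglia-like to 1.10 in choroid plexus-like cells. Clusters were also given the same weight in both libraries, their cell number over both, leaving out those under 10 cells in a library. The median was then 0.50 in microglia-like, 0.78 in choroid plexus-like and 0.37 in dentate granule neuron-like cells, against 0.68 for the last as pooled. The nuclear median was above 0 in all 11 as well, from 0.0030 in Cajal-Retzius-like to 0.36 in immature neuron-like cells. In choroid plexus-like cells it was 0.03 with those shared cluster weights, against 0.33 as pooled. As pooled, the nuclear median lay below the mitochondrially encoded median in all 11. It lay above the median of all genes in all 11 and above that of cytosolic ribosomal proteins in 2, the immature neuron-like and microglia-like classes. With the copy rows summed, the mitochondrially encoded median lay below the nuclear one in 2 classes. These were microglia-like cells (0.14) and immature neuron-like cells (0.26).

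**Figure D4:**
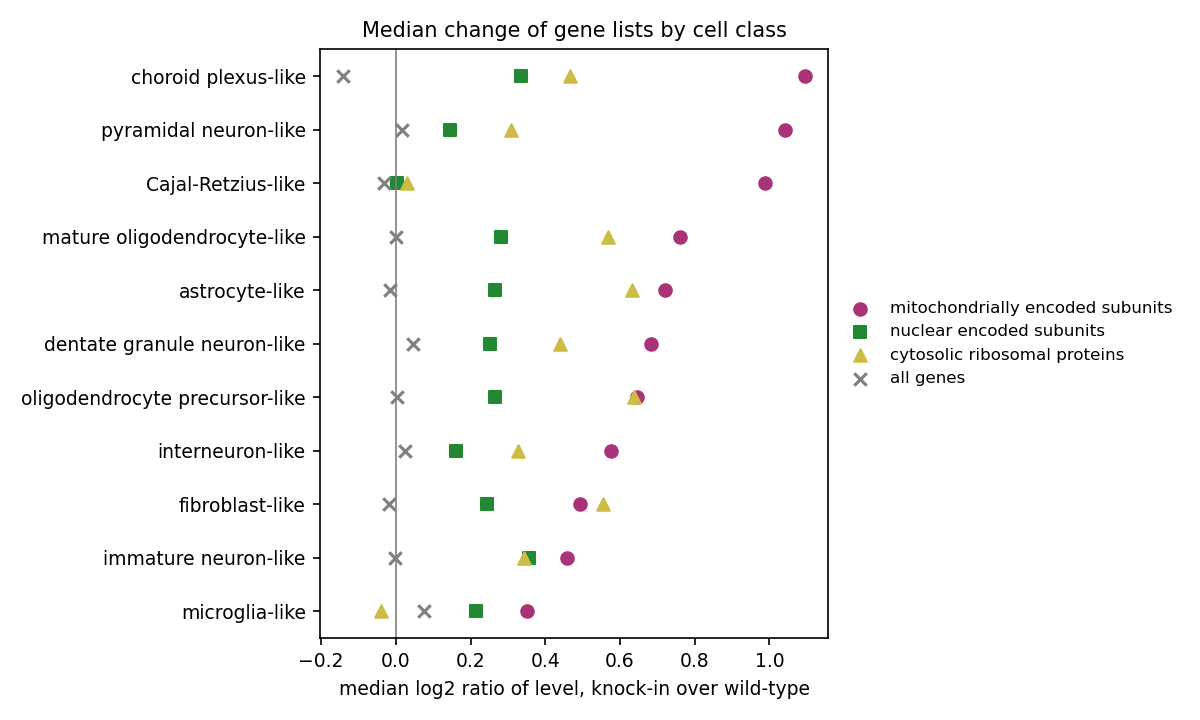
Median log2 ratio, knock-in over wild-type (horizontal axis), of mitochondrially encoded subunits, nuclear encoded subunits, cytosolic ribosomal proteins and all genes in each of 11 cell classes, 1 library per genotype, over genes at the minimum level in that class. Mitochondrially encoded subunits lie farthest right in 10 classes (0.46 to 1.10 outside fibroblast-like and microglia-like cells), and in fibroblast-like cells cytosolic ribosomal proteins do (0.55).

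Pyramidal neuron-like cells, the class with the least mitochondrially encoded RNA, had the largest relative difference in its sum among the 11 classes, 2.29-fold. Pericyte or smooth muscle-like cells, too few to be among the 11 (27 and 48), stood at 29.8 and 71.8. In pyramidal neuron-like cells the single members went the same way. There 5 members had the minimum level and all were higher by at least 0.5, against 1.38% of all genes in that class. mt-Cytb went from 0.999 to 2.16 (1.04), mt-Nd2 from 0.690 to 1.56 (1.07) and mt-Nd1 from 0.550 to 1.27 (1.08). Nuclear subunits in the same cells had a median of 0.14, with 8 of 40 higher by 0.25 against 8.16% of all genes. Dentate granule neuron-like cells had 8 of 8 mitochondrially encoded members higher by 0.25 and 19 of 37 nuclear ones, against 9.26% of all genes. Within the Trpc6-led cluster alone the mitochondrially encoded median was 0.44, against 0.68 in the whole class, and the nuclear median 0.24. Interneuron-like cells had 6 of 6 and 18 of 47, against 14.1%. The mitochondrially encoded and nuclear medians were 0.50 and 0.22 within their Kcnmb2-led cluster and 0.85 and 0.13 within the 6330411D24Rik-led cluster.

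Glial classes had higher counts than their background as well. Mature oligodendrocyte-like cells had 10 of 10 mitochondrially encoded and 21 of 33 nuclear members higher by 0.25, against 10.6% of all genes. Astrocyte-like cells had 10 of 10 and 20 of 39, against 11%, and oligodendrocyte precursor-like cells 9 of 9 and 14 of 25, against 18.9%. Within the Rgs20-led astrocyte-like cluster (508 and 691 cells) the mitochondrially encoded and nuclear medians were 0.93 and 0.21. Within the Myoc-led one (103 and 126 cells) both were 0.22, against -0.03 over all genes there. In it 5 of 10 mitochondrially encoded members were higher by 0.25, and the share of all genes past 0.25 in that cluster was not counted. In microglia-like cells mt-Cytb stood at 28.2 and 29.2 (0.05) and mt-Nd4l at 22.6 and 24.9 (0.14), short of 0.25. Within its clusters the mitochondrially encoded median was 0.49 (Cst3-led), 0.76 (Arhgap45-led) and 0.18 (P2ry12-led). In that class 6 of 10 mitochondrially encoded and 26 of 67 nuclear members were higher by 0.25, against 18.8% of all genes, and 1 nuclear member was lower, against 11.5%. The 3 members with the largest ratios there were mt-Co2 (3.18, from 0.0214 to 0.999), mt-Nd3 (1.09) and mt-Atp8 (0.90). With the copy rows summed, mt-Co2 had 0.12 (30.7 and 33.4) and mt-Nd3 0.48, and 4 of 11 mitochondrially encoded members were higher by 0.25.

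In the smaller classes more of all genes passed 0.25. In choroid plexus-like cells (102 and 88) 10 of 10 mitochondrially encoded and 51 of 76 nuclear members were higher by 0.25, against 22.3% of all genes, and 1 nuclear member was lower, against 41.6%. Within the Ttr-led cluster alone the nuclear median was 0.01 and the mitochondrially encoded median 0.66, against 0.33 and 1.10 in the whole class. The share of the class in the Htr2c-led cluster differed between libraries (40 of 102 and 21 of 88 cells). Fibroblast-like cells had 10 of 10 and 21 of 46, against 20.4%, with 2 nuclear members lower against 20.7%. Immature neuron-like cells had 7 of 10 (6 of 11 with the copy rows summed) and 19 of 32, against 25.9%, with 5 nuclear members lower against 24.9%. In Cajal-Retzius-like cells (62 and 100) all 10 mitochondrially encoded members were higher by 0.25, and 14 of 42 nuclear members were higher and 9 lower. Against 23.6% and 27.7% of all genes, the nuclear counts there were close to the background. Across 24 single clusters that had 50 or more cells per library, named or not, the mitochondrially encoded median was above 0 in 24 and the nuclear median in 23. The mitochondrially encoded median lay above the nuclear one in 23 of them, the exception being the Myoc-led astrocyte-like cluster.

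Among nuclear subunits, Cox7c was higher by 0.25 in 10 of 11 classes and by 0.5 in 6. It went from 0.280 to 0.512 (0.69) in mature oligodendrocyte-like, from 0.377 to 0.646 (0.64) in astrocyte-like and from 0.251 to 0.383 (0.46) in pyramidal neuron-like cells. The exception was Cajal-Retzius-like cells, at 0.361 and 0.409 (0.14). Cox8a was higher by 0.25 in 10 classes too, with 0.437 and 0.796 (0.74) in mature oligodendrocyte-like cells. Cox6c reached 0.5 in 5 classes, among them dentate granule neuron-like cells at 0.503 and 0.795 (0.57). Uqcrh reached 0.5 in 3 classes, astrocyte-like (0.61), oligodendrocyte precursor-like (0.54) and immature neuron-like (1.40), and stood at 0.946 and 0.895 (-0.07) in microglia-like cells. Ndufv2, by contrast, was higher by 0.25 in 1 class, fibroblast-like (0.26), and lower in 1, immature neuron-like (-0.48). Ndufs4 stood within 0.18 of 0 in 9 classes. The share of all genes that were higher in as many classes was not counted.

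Counted per cell, more knock-in cells carried mitochondrially encoded values. The median cell had 9.94 per 10000 (wild-type) or 17.8 (knock-in). Cells with no mitochondrially encoded value made up 14.5% (13.7 to 15.4%) of wild-type and 5.61% (5.14 to 6.11%) of knock-in cells. These shares, like the medians per cell, use the mitochondrially encoded rows without their copy rows. A cell with values on copy rows alone counts as having none, so the shares can be too high. The split between member and copy rows differed between libraries, and its part in these shares was not tested. In pyramidal neuron-like cells these shares were 41.1% (38.2 to 44.0%) and 17.2% (15.2 to 19.4%), and in dentate granule neuron-like cells 18.03% and 4.18%. In mature oligodendrocyte-like cells they were 0.397% and 0%, the latter of 1509 cells. The sum was concentrated in few cells: the top 5% of cells held 41.6% of it among wild-type and 38.3% among knock-in cells. Nuclear encoded sums per cell were narrower, with a median of 16.5 (quartiles 12.2 and 21.8) against 20.9 (16.1 and 26.9). The knock-in library also had more detected genes per cell, and the part of depth in these shares was not tested. With each cell thinned to a total of 1000, the medians of the log2 ratios were 0.68 for the mitochondrially encoded and 0.23 for the nuclear encoded subunits. These medians are of levels from values already corrected for depth, so they do not measure the part of depth in the shares of cells.

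Several complex IV subunits exist as paralogues with different tissue use, and their shares marked cell classes in both libraries. Ndufa4l2, the hypoxia-inducible paralogue of Ndufa4, stood at 1.30 and 0.864 in pericyte or smooth muscle-like cells and at no more than 0.0565 in any other class. It made up 87.1% and 67.3% of the pair there and was above 0 in 12 of 27 and 14 of 48 cells, against 0.212% and 0.341% of all other cells. Cox4i2, the lung and hypoxia-associated form of subunit 4, had the same pattern. It stood at 1.10 and 1.26 in that class, above 0 in 10 of 27 and 19 of 48 cells, and at no more than 0.0432 elsewhere. Cox4i1, its usual partner, was not analysed here. Neither gene was used to build or name the clusters.

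Cox6b2, known as the testis form of subunit 6b, took 33.5% and 32.2% of its pair with Cox6b1 in astrocyte-like and 35.5% and 39.6% in fibroblast-like cells. It took 19.2% in choroid plexus-like cells in both libraries, and 1.45% and 1.21% in dentate granule neuron-like cells. Cox6a2, the heart and muscle form of subunit 6a, took 8.25% and 9.05% in interneuron-like cells (8 of 236 and 20 of 475 cells above 0). It took 3.19% and 3.25% in microglia-like cells and no more than 3.03% in any other class. Cox7b2 took 17.3% and 14.3% of its pair with Cox7b in dentate granule neuron-like, 13.9% and 12.5% in pyramidal neuron-like and 21.6% and 10.2% in interneuron-like cells. Within the interneuron-like clusters its share was 22.2% and 9.80% (Kcnmb2-led) and 20.4% and 10.8% (6330411D24Rik-led), from summed Cox7b2 values of 10 to 24. In mature oligodendrocyte-like cells its share was 1.84% and 2.42%. Cox7a1, the muscle form of subunit 7a, took 6.43% and 9.64% of its pair with Cox7a2 in choroid plexus-like cells. Cox8b, the muscle form of subunit 8, took 1.67% and 4.71% there. Cox7a2l took 66.2% and 58.4% of the summed value of Cox7a2 and Cox7a2l in microglia-like cells and 15.6% and 20.2% in choroid plexus-like cells.

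**Figure D5:**
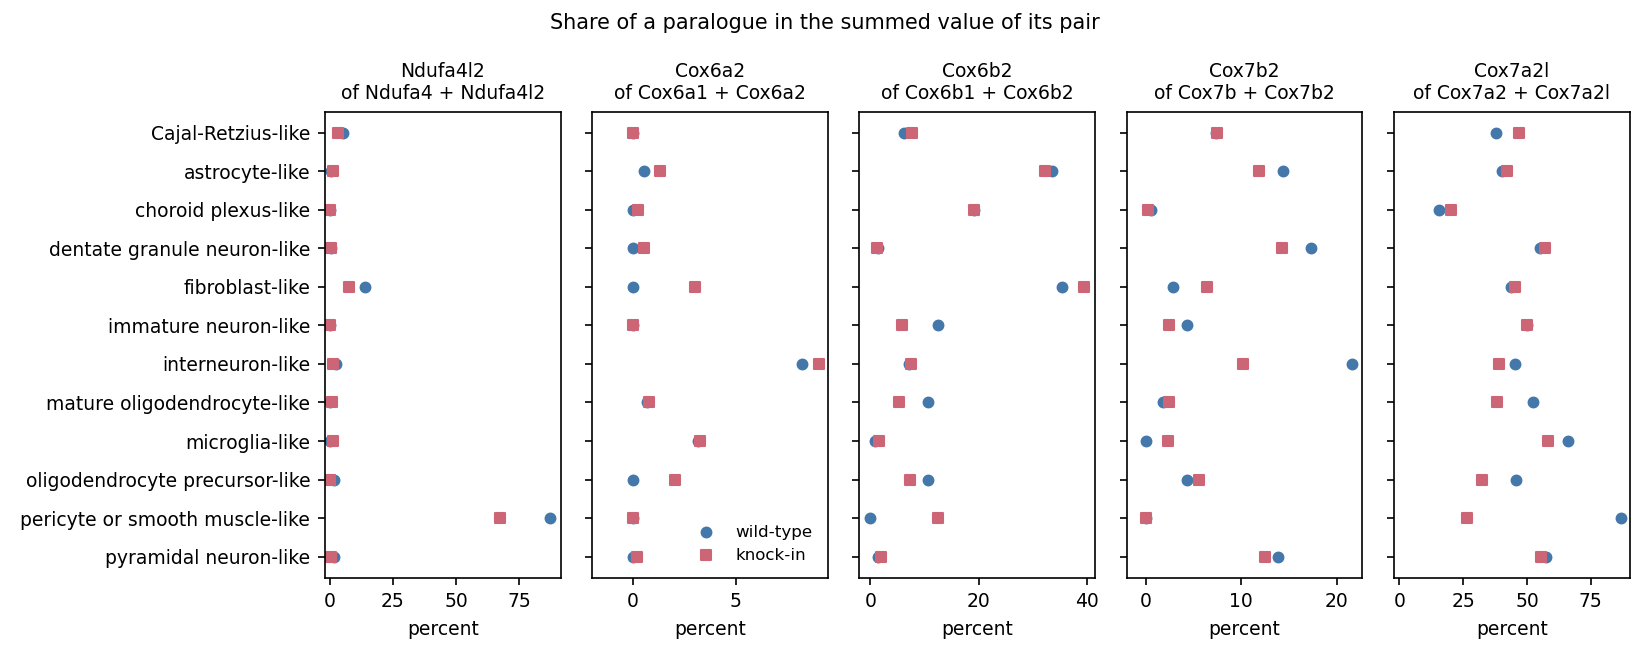
Percent of the summed value of a pair of paralogues that falls on the second gene (horizontal axes, each with its own range), by cell class, in the wild-type (circles) and knock-in (squares) library. Ndufa4l2 stands out in pericyte or smooth muscle-like cells (87.1% and 67.3%), Cox6a2 in interneuron-like cells and Cox6b2 in astrocyte-like and fibroblast-like cells.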

How the data were processed

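The deposited table held whole-number, depth-corrected values per cell and gene, a score made by the authors with Seurat 3.0.0 on GRCm38, per the submitters' processing notes; the aligner and cell filter are not given in the sources used here. It is not a table of raw counts, so no count model was fitted. Cells were normalised, reduced to 30 principal components over 2000 variable genes and clustered (15 neighbours, Leiden resolution 1) with scanpy 1.11.5 in Python 3.11.15. Member, mt-, cytosolic ribosomal and sex-linked genes were left out of clustering, but not the near-identical pseudogene rows. Names came from marker genes, at least 3 per cluster, by a rule set after the clusters were seen and revised once. Scrublet called 60 wild-type and 150 knock-in cells doublets, which were kept. Promoter motifs were shortened to cores of under 10 letters after longer forms had been run. Near-identical rows were found with BLAST+ 2.17.0. Share intervals are 95% Clopper-Pearson intervals. The level calculation was tested on simulated data.

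The members and lists were chosen with earlier results of these data known. Named genes were all mitochondrially encoded members, the paralogue pairs, in each complex the nuclear subunit of highest level and those of largest and smallest log2 ratio, nuclear subunits past 0.5 over all cells or in at least 3 classes, the 5 of widest range over classes, and leading genes of the other lists. Cox5b, Cox6c, Uqcrq, Sdhb, Sdhc, Ndufs1 and others outside this rule were chosen after their values were seen. Alternatives covered the pseudocount, minimum level, depth, scaling, doublets, cell filter, cluster weights and clustering.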

Additional observations from a re-analysis of the deposited data

Results flagged for a closer look

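In 5 nuclear subunits a class had a log2 ratio of -0.5 or below while another had 0.5 or above, and the difference between the classes was not tested, since each genotype is 1 library. Uqcr11 of complex III had -0.54 in Cajal-Retzius-like cells (summed values 14 and 13) and 0.55 in microglia-like cells. Cox7b of complex IV had -0.63 in Cajal-Retzius-like cells (summed values 38 and 37) and 0.56 in interneuron-like cells. Among complex I subunits, Ndufa10 had -0.65 in Cajal-Retzius-like cells (27 and 25) and 0.83 in fibroblast-like cells. Ndufb11 had -0.50 in Cajal-Retzius-like cells (17 and 17) and 0.52 in astrocyte-like cells. Ndufc2 had -0.96 in immature neuron-like cells (34 and 20) and 0.51 in fibroblast-like cells. The negative values all came from classes with no more than 100 cells in a library and from summed values under 40. At 0.25, 27.7% of all genes were lower in Cajal-Retzius-like cells and 24.9% in immature neuron-like cells. The share of all genes that differ in this way between classes was not counted.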

How the results depend on the processing

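No paired analysis was possible because each genotype is 1 pooled library. Over the alternatives tried, the median log2 ratio over all cells ranged from 0.48 to 0.69 for mitochondrially encoded subunits, from 0.0405 to 0.303 for nuclear encoded ones, and from 0.29 to 0.48 for their difference. The nuclear median was 0.12 with a pseudocount of 0.5 and 0.0405 at a minimum level of 1, where 1 gene was left. The mitochondrially encoded count was 4 at a minimum level of 1 and 3 at a fold of 1. The nuclear count of 22 became 36 with a pseudocount of 0.01 and 2 with 0.5, 8 with values of 1 set to 0, 12 after subtracting the median of all genes, and 0 at a minimum level of 1 and at folds of 0.5 and 1. Of 484 class medians tried, 43 moved widely in size without a change of sign and 10 reversed. In Cajal-Retzius-like cells the nuclear median was -0.0294 with no minimum level, -0.44 with values of 1 set to 0, -0.0792 after thinning and -0.00579 relative to the sum without Malat1, mitochondrial and ribosomal protein genes. It was -0.0549 in choroid plexus-like cells with 15 principal components and -0.0160 in pyramidal neuron-like cells at a minimum level of 1. Mitochondrially minus nuclear encoded, immature neuron-like cells gave -0.12 at a minimum level of 1, -0.11 with values of 1 set to 0 and -0.0943 with near-identical rows summed, and microglia-like cells -0.0780 in the last case. Summing those rows and leaving out the cluster led by mt-Rnr2 were chosen after seeing the data. Of 476 ratios of single genes 36 were counted as moved and none as reversed. The count of reversals leaves out some changes of sign among small ratios. Ndufv2 (0.0096), Ndufs1 (0.0267) and Ndufs4 (0.0405) had log2 ratios under the median of all genes (0.0456). Subtracting that median makes them negative, so the count does not show that small ratios kept their sign. The share of Cox6a2 in its pair in interneuron-like cells moved in 1 alternative setting in each library. That of Cox8b in choroid plexus-like cells moved in 1 in the wild-type library. The cause of the differences between settings was not tested.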
